A study of Mus musculus with 2 samples.

Results

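Long intergenic noncoding RNAs (lincRNAs) are RNA polymerase II transcripts from genes that lie between protein-coding genes. They were examined here in total RNA from mouse limb at embryonic day 14.5. A gene was a member when the reference annotation typed it as lincRNA, it lay on an autosome, and both libraries gave it 1 TPM or more (TPM is a gene's share of all transcripts, on a scale with a fixed sum). Well-studied RNAs such as H19, Meg3, Gas5, Rmrp and the Snhg genes were left out by name. Of 2134 autosomal lincRNA genes listed, 194 reached the minimum in both libraries, and 184 of these (8.62% of those listed) remained after 10 were left out by name. The members stand among 42462 Ensembl genes in the tables that had an entry in the annotation.

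The study gives 1 group, limb of strain B6NCrl embryos, with 2 libraries labelled as biological replicates 1 and 2 and no treatment. The input was 10 ng of RNA over 200 nt with spike-ins, extracted with mirVana from the 4 limbs of a pup. Donor, pup and pregnancy carry the same numbers for both libraries while the collection days differ, so the labels do not settle whether the animals were separate. The labels call the sex mixed, yet 4 Y-linked genes summed to 6631 expected counts in replicate 1 and 0 in replicate 2, while Xist had 11.5 counts in replicate 1 and 29957 in replicate 2. Both libraries therefore go against their label of pooled sexes, and replicate 2 against replicate 1 is also a contrast of a library with female against one with male expression of these genes. Sex, collection day and technical spread cannot be told apart in any difference between the libraries. Expected counts came to 34193161 in replicate 1 and 32879425 in replicate 2. The members were selected on TPM in both of these libraries, so their levels and their differences between libraries are given as descriptions with no test.

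LincRNA genes differ widely in what their RNA does. Some RNAs act themselves, as scaffolds of nuclear bodies or by binding proteins or microRNAs. Others are the precursors of microRNAs or small nucleolar RNAs cut from their exons or introns. For others the act of transcription, or a DNA element in the gene, is what matters to a neighbouring coding gene. LincRNAs tend to be spliced from few exons and to be less abundant than messenger RNAs.

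The members that carry microRNAs are shown first, because their mature sequences are the known products of those genes. A total of 13 members held a small RNA gene inside their span on the same strand. Of these, 10 held 18 microRNA genes and 4 held small nucleolar or Cajal body RNA genes, with 1 member in both sets. RefSeq (build GRCm38.p6) gave mature sequences for 15 of the microRNA genes, as 28 arms with 23 different seeds. For each gene 1 arm is printed 5′ to 3′ with its seed, bases 2 to 8, in capitals. Mature microRNAs were too short for these libraries, so only their hosts were measured.

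Mir17hg, at chr14:115042879-115046727 on the plus strand (GRCm38), carries the miR-17-92 cluster, whose loss shortens digits in mice and in people. Its arms fall into 4 seed groups: miR-17 with miR-20a, miR-18a, miR-19a with miR-19b, and miR-92a.
mmu-miR-17-5p: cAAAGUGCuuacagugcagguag
mmu-miR-20a-5p: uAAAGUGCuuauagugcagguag
mmu-miR-18a-5p: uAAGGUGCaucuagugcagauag
mmu-miR-19a-3p: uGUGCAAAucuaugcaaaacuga
mmu-miR-19b-3p: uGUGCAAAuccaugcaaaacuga
mmu-miR-92a-3p: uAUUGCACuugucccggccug
All 6 genes lay in an exon of the leading transcript, the listed transcript with most TPM.

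The gene 6720427I07Rik on chromosome 13 carries 3 let-7 genes, which share 1 seed and act in developmental timing.
mmu-let-7a-5p: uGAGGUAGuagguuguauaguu
mmu-let-7f-5p: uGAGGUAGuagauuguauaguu
mmu-let-7d-5p: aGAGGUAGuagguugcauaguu
Each let-7 gene was also in an exon of the leading transcript.

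The remaining hosts carry microRNAs with a seed each. miR-206 and miR-133b belong to skeletal muscle and lie in Gm28653, which matched the RefSeq gene Lincmd1 by position. miR-205 belongs to stratified epithelia and lies in 4631405K08Rik, the RefSeq gene Mir205hg. miR-181b, miR-101a and miR-1839 lie in A430106G13Rik, E130102H24Rik and 2900076A07Rik.
mmu-miR-206-3p: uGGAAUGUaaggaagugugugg
mmu-miR-133b-3p: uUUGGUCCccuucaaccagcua
mmu-miR-205-5p: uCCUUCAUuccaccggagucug
mmu-miR-181b-5p: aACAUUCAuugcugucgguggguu
mmu-miR-101a-3p: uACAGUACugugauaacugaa
mmu-miR-1839-5p: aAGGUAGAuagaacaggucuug
The other microRNA hosts were Smkr-ps, Gm21814 and A930003A15Rik, whose small RNAs Gm23049, Gm24307 and Gm27883 had no mature sequence in the RefSeq table.

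MicroRNA hosts were spread from near the minimum up to the 20 highest members. The highest was 2900076A07Rik, with 20.71 TPM in replicate 1 and 23.47 TPM in replicate 2. The epithelial host 4631405K08Rik had 10.85 and 10.46 TPM in replicates 1 and 2, a near equal level. Mir17hg had 5.61 and 5.21 TPM in the same order. The let-7 host 6720427I07Rik had 7.27 TPM in replicate 1 and 5.40 TPM in replicate 2, and E130102H24Rik had 3.12 and 3.48 TPM. The muscle host Gm28653 had 2.26 TPM in replicate 1 and 1.68 TPM in replicate 2. A430106G13Rik, with 93.6 and 146 counts, had 1.24 TPM in replicate 1 and 2.06 TPM in replicate 2. The hosts of unnamed small RNAs were Smkr-ps at 2.11 and 3.43 TPM, Gm21814 at 2.27 and 1.21 TPM, and A930003A15Rik at 3.56 and 1.80 TPM in replicates 1 and 2. Gm21814 rested on 10 expected counts in replicate 1 and 5 in replicate 2, so its ratio has little depth behind it.

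Hosts of small nucleolar RNAs, which guide chemical changes of other RNAs, were fewer. Epb41l4aos, whose span holds the snoRNA gene Gm23639, had 20.68 and 22.34 TPM in replicates 1 and 2. Then came 2700038G22Rik, host of Snord93, at 7.00 and 8.14 TPM, and Gm26945, host of Gm24899 on chromosome 12, at 2.46 and 2.36 TPM. The span of 2900076A07Rik also holds a Cajal body RNA record under the name Mir1839. Each of these hosts differed little between the libraries.

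Most members were near the minimum. Their median level was 3.17 ± 0.26 TPM (mean over both libraries with the SD of the 2 library medians, n = 2), with quartiles of 1.73 and 6.36 TPM. By library the medians were 3.02 TPM in replicate 1 and 3.40 TPM in replicate 2. The 12719 detected autosomal protein-coding genes had a median of 18.7 TPM, with quartiles of 7.03 and 45.3 TPM. Of the members, 56 (30.4%) averaged under 2 TPM, 69 averaged 2 to 5 TPM, 28 averaged 5 to 10 TPM and 31 reached 10 TPM. Among the coding genes 5.90% averaged under 2 TPM. The minimum itself sets the lower end of both distributions.

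Depth was correspondingly thin. In the library with fewer counts, the median member had 85.0 expected counts, against 1026 for the median detected coding gene. A minimum of 10 counts in both libraries was met by 180 members and 50 counts by 128. All members together took 0.231% of the counts of replicate 1 (95% Wilson interval 0.229 to 0.232%) and 0.253% of those of replicate 2 (0.251 to 0.255%). These intervals cover counting error only.

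Just inside the minimum were Gm13056 with 1.22 and 1.00 TPM in replicates 1 and 2, Gm26896 with 1.13 and 1.04, Gm4425 with 1.04 and 1.04, 3110099E03Rik with 1.05 and 1.37, and Gm17308 with 1.05 and 1.5. Just outside were 3222401L13Rik with 0.99 and 1.00 TPM, 4930570G19Rik with 0.99 and 1.11, Gm26823 with 1.17 and 0.99, 2810433D01Rik with 0.97 and 1.58, and Gm20045 with 0.96 and 1.12. Both sides of the minimum overlap in either library alone. A further 22 lincRNA genes reached 1 TPM in replicate 1 only and 32 in replicate 2 only. Of the 2134 listed, 1062 (49.8%) had 0 TPM in both libraries and 824 were above 0 but under 1 TPM in both.

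**Figure D1:**
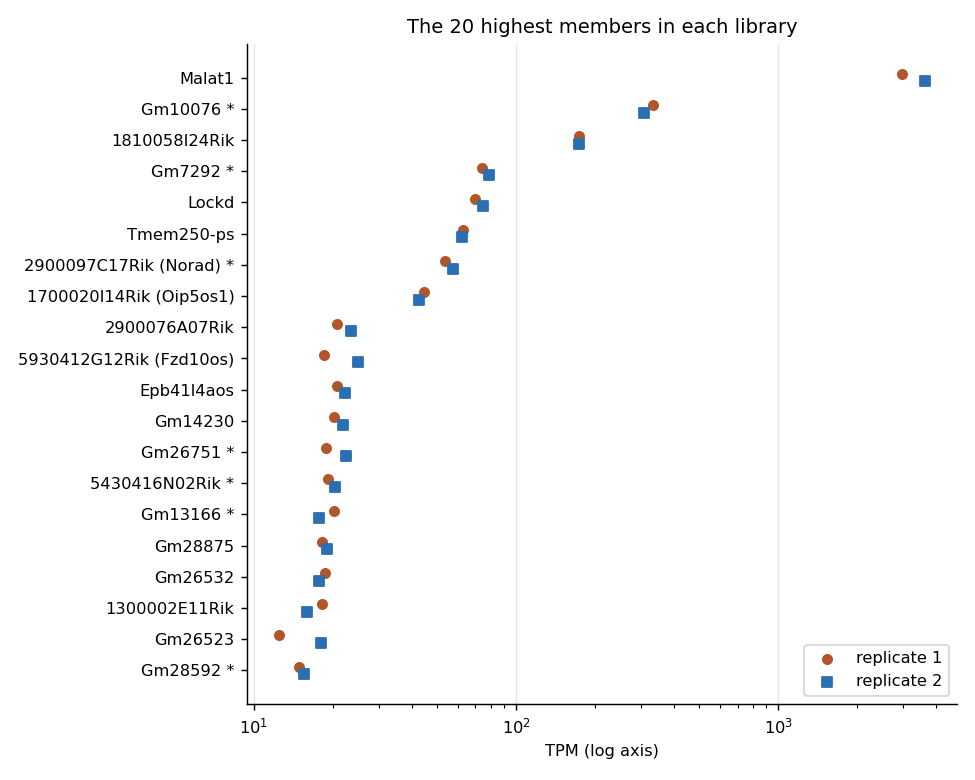
TPM on a log axis of the 20 members of highest mean TPM, with a circle for replicate 1 and a square for replicate 2; an asterisk marks members whose leading transcript is 50% or more shared with another listed gene. Malat1 stands at 2973 and 3634 TPM, and only 2 other members are above 100 TPM.

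Malat1, a nuclear RNA of speckles where splicing factors gather, was the highest member by deposited TPM. It had 2973 TPM in replicate 1 and 3634 TPM in replicate 2 (3303 ± 467, SD, n = 2), rank 20 of 14640 genes detected in both libraries. It alone held 64.3% of the summed TPM of all members in replicate 1 and 68.2% in replicate 2. Of their counts it held 40.4% in replicate 1 (Wilson 40.0 to 40.7%) and 43.8% in replicate 2 (43.4 to 44.1%). The share of TPM thus exceeds the share of counts in both libraries.

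The transcripts to which Malat1 reads were assigned differ greatly in length. The gene lies at chr19:5795690-5802672 on the minus strand (GRCm38), and its full-length transcript is 6983 nt and unspliced. A listed 485-nt transcript, made of bases 2 to 435 and 707 to 757 from the gene's start, was given 98.8% of the gene's TPM in replicate 1 and 98.7% in replicate 2. That short transcript held 81.8% of the counts in replicate 1 (Wilson 81.4 to 82.2%) and 81.6% in replicate 2 (81.2 to 82.0%). The full-length transcript was given 36.66 and 45.17 TPM in replicates 1 and 2. If all of the gene's counts were set on the full length, with the effective length the tables imply, its level would be 201 TPM in replicate 1 and 246 TPM in replicate 2. That is below the 332 and 307 TPM of Gm10076, so the first place of Malat1 by TPM, and its share of the members' TPM, rest on the short transcript. Malat1 is also the member with most counts, 31858 and 36406 in replicates 1 and 2, but its TPM depends on how reads were split between its transcripts. The short transcript also shares 161 bases (33.2%) with Gm37376, an overlapping gene on the opposite strand listed at 1127 and 1389 TPM in replicates 1 and 2. The split of reads between these 2 genes was not tested, and the 201 and 246 TPM take the counts of Malat1 as deposited.

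Neat1 is the scaffold of paraspeckles, which need its long transcript. The whole gene had 4.24 TPM in replicate 1 and 3.60 TPM in replicate 2, about the median of the members. The 20771-nt transcript held 38.3% of its TPM in replicate 1 and 49.6% in replicate 2, and the 3004-nt transcript 59.5% and 47.6% in the same order. In counts the long form led in both libraries, with 81.9% in replicate 1 and 87.9% in replicate 2. The leading form by TPM thus differed between the libraries while the leading form by counts did not.

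**Figure D2:**
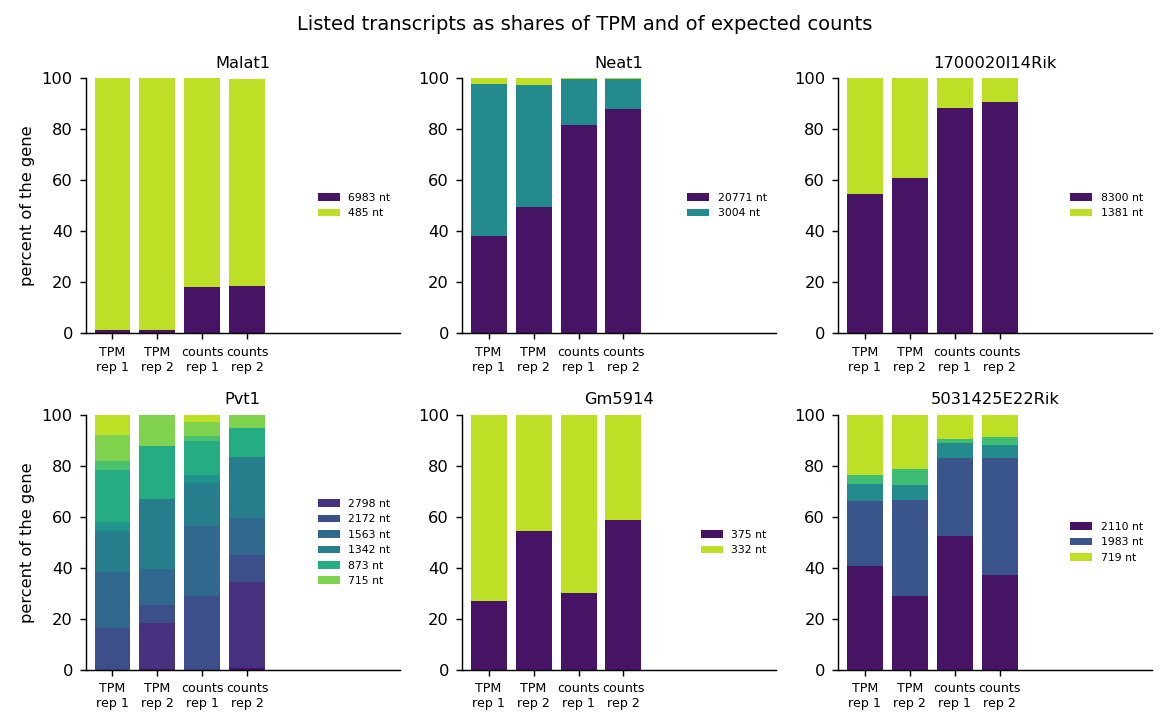
Listed transcripts of 6 members as stacked percents of the gene's TPM and of its expected counts in each replicate, with lengths given for transcripts of 10% or more. In Malat1 the 485-nt form fills 98.8% and 98.7% of TPM against 81.8% and 81.6% of counts, and in Neat1 the 20771-nt form fills 38.3% and 49.6% of TPM against 81.9% and 87.9% of counts.

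More than 1 transcript was listed for 73 members, and 111 had a single one (60.3%, against 27.4% of detected coding genes). The same transcript led in both libraries for 61 of the 73 (83.6%). Among coding genes with several transcripts the share was 91.4% of 9235. Of the 12 members whose leading transcript differed, 3 were at 5 TPM or more. Pvt1, the neighbour of the Myc oncogene, had 7.01 and 5.03 TPM over 10 transcripts in replicates 1 and 2, and its leading form was 1563 nt in replicate 1 (21.8% of TPM) and 1342 nt in replicate 2 (27.2%). Gm5914 had 73.2% of its TPM on a 332-nt form in replicate 1 and 54.6% on a 375-nt form in replicate 2, with 57 and 68 counts. Of the 332-nt form, 206 bases match the gene Ctcf on the opposite strand, and the part of this match in the change was not tested. The third, 5031425E22Rik, was led by a 2110-nt form in replicate 1 (40.9%) and a 1983-nt form in replicate 2 (37.7%). The other 9 were 2810429I04Rik, 2900079G21Rik, 3110099E03Rik, 9530059O14Rik, C230035I16Rik, Gm13387, Halr1, Miat and Neat1, each under 5 TPM.

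RNAs with a known action of their own were among the highest members. The gene 2900097C17Rik is Norad in RefSeq, an RNA that binds Pumilio proteins and keeps chromosomes stable, at chr2:156388065-156392979 on the minus strand. It had 53.48 TPM in replicate 1 and 57.60 TPM in replicate 2. Pumilio proteins recognise TGTANATA (N is any base, searched on the RNA strand), and the reference transcript of 4915 nt held 11 copies of it, or 2.24 per kb. Over the leading transcripts of all 183 members with a reference sequence the density was 0.178 per kb, and 36 of them (19.7%) held a copy. The only other member above 5 copies was Gm7292 on chromosome 6, with 9 copies in 2527 nt. Gm7292 matched 2900097C17Rik over 2537 aligned bases at 99.2% identity, and had 74.42 and 79.16 TPM in replicates 1 and 2. The tables list 2900097C17Rik with a transcript of 1149 nt, shorter than that of Gm7292. Neither gene had whole counts, which arise where reads are divided among genes, and the level of each is uncertain.

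Cyrano, listed as 1700020I14Rik and named Oip5os1 in RefSeq, directs the destruction of the microRNA miR-7. It lies at chr2:119594297-119607502 on the plus strand. It had 44.56 TPM in replicate 1 and 42.49 TPM in replicate 2, with 5190 and 5015 counts. Its 8300-nt transcript on chromosome 2 holds the miR-7 site at bases 2935 to 2959. The site is shown 5′ to 3′ beside the microRNA, with bases able to pair in capitals in the site and the seed in capitals in the microRNA.
Oip5os1 site: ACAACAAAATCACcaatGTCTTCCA
mmu-miR-7a-5p: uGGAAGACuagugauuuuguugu
Of the 25 bases of the site, 21 pair with the microRNA, and 4 face 2 unpaired bases of the microRNA between the paired blocks. The 8300-nt form held 54.7% of the gene's TPM in replicate 1 and 61.0% in replicate 2, and 88.5% and 90.9% of its counts.

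Lockd, the RNA from downstream of the cell-cycle inhibitor gene Cdkn1b at chr6:134929092-134956798, had 69.97 TPM in replicate 1 and 74.50 TPM in replicate 2. Its leading transcript is listed at 441 nt, against 5662 nt for the reference sequence, so the TPM of Lockd rests on the shorter length. The start of Lockd lies 8691 bases from that of Cdkn1b. The ratio of its counts between libraries had a 95% counting interval of -0.12 to 0.23 on the log2 scale, which includes no difference.

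Other known RNAs stood at lower levels. Of the 55 names in the list of known long noncoding RNAs, 42 genes had a row, 25 of them typed lincRNA, and 15 were members. Besides those described above, the list's members were Bvht at 4.48 and 5.59 TPM and Carmn at 3.0 and 4.01 TPM in replicates 1 and 2, both known from the cardiovascular lineage. Pantr1, which diverges from the neural regulator Pou3f3, had 4.72 and 6.4 TPM. Miat had 2.30 and 3.07 TPM, and Halr1 had 1.45 and 1.5 TPM. Gm14005, which is Morrbid in RefSeq and sets the lifespan of myeloid cells, had 8.67 TPM in replicate 1 and 4.39 TPM in replicate 2.

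Another 10 lincRNA genes of the list missed the minimum. Trp53cor1, a target of the tumour suppressor p53, came nearest, with 1.02 TPM in replicate 1 and 0.88 TPM in replicate 2. The other 9 were Lncpint, Mir142hg, Mir155hg, Mir124a-1hg, Mir9-3hg, Mirt1, Lncenc1, Platr4 and C130071C03Rik, with means of 0 to 0.405 TPM. A further 10 detected genes of the list are typed otherwise in the annotation and are no members: Tug1 at 133.73 and 148.67 TPM in replicates 1 and 2, Zfas1, Mir100hg, Dleu2, Mir99ahg, Hand2os1, Crnde, Ptprv, Mir22hg and Hoxaas3. Type, and not level alone, decides what the members hold.

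Some members are typed differently by RefSeq. A RefSeq record was matched to 107 members, and it was a long noncoding RNA for 95, a protein-coding gene for 8 and a pseudogene of some kind for 4. The third highest member, 1810058I24Rik, is protein-coding in RefSeq with the synonym Stmp1, a short mitochondrial peptide. It had 173.87 TPM in replicate 1 and 173.26 TPM in replicate 2, the smallest difference among the 8 highest members. Tmem250-ps, the sixth, had 62.96 and 62.19 TPM and is also protein-coding there. Gm10076, the second, is a pseudogene in RefSeq.

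Sequence shared with other genes set apart another group of members. A leading transcript sequence was in the reference for 183 members, and for 166 it had the length listed with the counts. Shared percents refer to the reference sequence, also where its length differs. Of these, 30 (16.4%) had 50% or more of it covered by matches of 98% identity or more and 100 bases or longer to another listed gene, and 113 (61.7%) had no such match. Among lincRNA genes that missed the minimum, 92 of 1930 (4.77%) were covered to 50% or more. Expected counts were not whole numbers for 29 of the 30, against 25 of the 143 members under 20% shared. A count that is not whole arises where reads are divided among genes. The median level of the 30 was 4.68 TPM, against 2.78 TPM for the 143.

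The match was on the opposite strand for 24 of the 30, and for 23 of these the matching gene overlapped the member on the genome. The labels point to a SmartSeq protocol and the sources used here state no strand for the counting, so reads from such a member and from its overlapping partner cannot be told apart. The matching gene was protein-coding for 20 and higher than the member for 21 of the 30. Gm26751 lies opposite Nynrin and had 18.84 TPM in replicate 1 and 22.47 TPM in replicate 2, against 15.48 and 18.02 TPM for Nynrin. Gm28592, opposite Phlda1, had 14.89 and 15.60 TPM against 30.75 and 28.30 TPM. Gm26825 matches Hspa8, a constitutive heat shock protein gene elsewhere in the genome, over 95.8% of its length. It had 17.15 and 12.95 TPM, against 1573 and 1508 TPM for Hspa8.

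Matches on the same strand, all to genes elsewhere, included the second highest member. Gm10076, a 384-nt single exon at chr14:105681828-105682211, matched the ribosomal protein gene Rpl41 at 99.5% identity over 383 bases. It had 332 TPM in replicate 1 and 307 TPM in replicate 2, against 3794 and 3519 TPM for Rpl41. The log2 ratio between libraries was -0.11 for both genes. Gm13166, with 20.20 and 17.66 TPM, was wholly covered by the zinc finger gene Zfp991 at 7.24 and 7.20 TPM. On the opposite strand, Gm26906 lies over Meg3 in the imprinted Dlk1-Dio3 domain, with 8.80 and 6.0 TPM against 889 and 789 TPM for Meg3. Others of the 20 highest with 50% or more shared were 5430416N02Rik, whose largest match, Gm27286, is listed at 0, and the Norad pair.

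**Figure D3:**
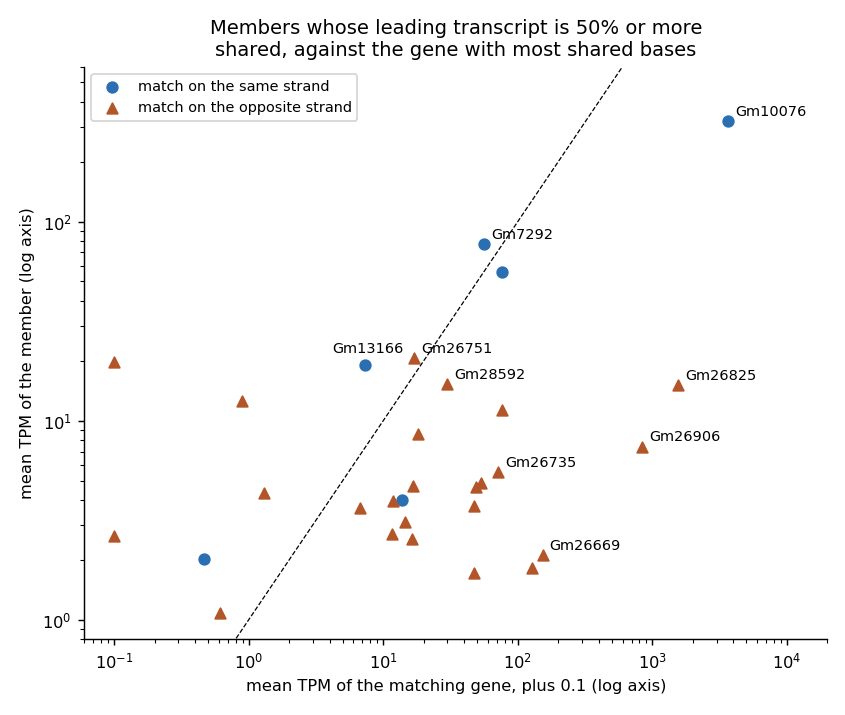
Mean TPM of the 30 members whose leading transcript is 50% or more shared (y) against mean TPM plus 0.1 of the gene with most shared bases (x), both on log axes; triangles are matches on the opposite strand, circles matches on the same strand, and the dashed line marks equality. For 21 of the 30 members the matching gene is the higher, among them Gm10076 at 332 and 307 TPM against 3794 and 3519 TPM for Rpl41.

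In structure the members were simple. Their leading transcripts had a median length of 1396 nt, against 2610 nt for detected coding genes, and a median of 2 exons, against 8. A single exon made up the leading transcript of 30 members (16.4%), against 2.70% of coding genes. Gene spans reached from 154 to 340111 bases, with a median of 7857. Annotated spans of protein-coding genes overlapped 58 members (31.5%), and coding genes' exons overlapped 47 (25.5%), on the opposite strand for 43. Among lincRNA genes below the minimum these shares were 13.5% and 8.35%.

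Divergent transcription, in which a lincRNA and a coding gene start near each other and run apart on opposite strands, was next counted from the annotation. Within 2000 bases, 30 members (16.3%) diverged from a protein-coding gene, against 167 (8.61%) of the 1940 lincRNA genes below the minimum. The coding neighbour was detected for 28 of the 30, against 62.5% of all 20337 listed autosomal protein-coding genes. Its median level was 17.8 TPM, near the 18.7 TPM of detected coding genes. The neighbour was above the member in both libraries for 23 pairs and below it in both for 6. How often a coding gene taken without regard to position would be above the member was not counted. The measure of level was TPM on both sides.

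The highest divergent member was 5930412G12Rik, the RefSeq gene Fzd10os, with 18.52 and 24.91 TPM in replicates 1 and 2. Its neighbour 151 bases away, the Wnt receptor gene Fzd10, had 9.58 and 8.65 TPM, below the member. A 2429-nt form of 5930412G12Rik held 59.5% and 59.4% of its counts but 15.35% and 16.08% of its TPM in replicates 1 and 2. The order of this pair thus depends on how reads were split between the member's transcripts. Gm14230 had 20.26 and 21.93 TPM beside Tgif2, a homeodomain repressor of TGF-beta signalling, at 50.04 and 54.95 TPM. AI480526 had 12.85 and 16.03 TPM, above the 8.11 and 8.78 TPM of Setd1b, a histone H3 lysine methyltransferase gene. 2010320M18Rik had 13.96 and 15.05 TPM beside Pik3r2, a regulatory subunit of PI3 kinase, at 56.53 and 57.36 TPM. 5031425E22Rik had 10.75 and 11.09 TPM beside Kmt2e at 26.68 and 29.36 TPM. Gm16001 had 7.24 and 8.75 TPM beside Ogfod2 at 9.78 and 10.21 TPM. Fam120aos had 6.44 and 6.46 TPM beside Fam120a at 28.97 and 28.52 TPM, and 2810032G03Rik had 5.03 and 6.98 TPM beside Klhl29 at 3.69 and 4.54 TPM. Pantr1 stood above Pou3f3, which had 0.59 and 0.69 TPM, while Gm17586 at 4.41 and 3.51 TPM was below Mafg at 19.72 and 22.94 TPM.

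A divergent pair can share its promoter region, and 2 of the pairs are shown. RefSeq (GRCm38.p6) windows of 250 bases before to 50 after the member's start are printed 5′ to 3′ on the member's strand. The window of 2010320M18Rik is chr8:70776612-70776911 on the plus strand and that of Gm16001 is chr5:124112197-124112496 on the minus strand. That of the muscle host Gm28653, chr1:20669632-20669931 on the plus strand, is set beside them as a promoter that is not divergent. Capitals mark matches on either strand to 8 motifs, which are TATAAA of core promoters, CCAAT of NF-Y, GGGCGG of Sp factors, CCGGAAG of Ets factors, CACGTG of E boxes for Myc or Usf, CAGCTG of E boxes for myogenic factors, TGACGTCA of Creb and the palindromic motif of Nrf1. None of them contains another.
2010320M18Rik: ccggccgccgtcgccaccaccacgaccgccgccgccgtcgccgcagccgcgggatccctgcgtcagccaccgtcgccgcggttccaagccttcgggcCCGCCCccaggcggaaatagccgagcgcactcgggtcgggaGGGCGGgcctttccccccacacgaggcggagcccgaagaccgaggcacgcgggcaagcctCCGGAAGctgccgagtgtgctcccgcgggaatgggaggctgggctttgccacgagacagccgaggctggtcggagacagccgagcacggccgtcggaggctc
Gm16001: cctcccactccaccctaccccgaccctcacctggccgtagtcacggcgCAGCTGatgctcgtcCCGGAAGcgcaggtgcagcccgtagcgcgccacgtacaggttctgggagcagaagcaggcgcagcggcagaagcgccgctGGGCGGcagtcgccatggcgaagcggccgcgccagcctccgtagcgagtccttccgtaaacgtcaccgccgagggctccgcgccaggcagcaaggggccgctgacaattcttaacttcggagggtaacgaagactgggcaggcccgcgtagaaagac
Gm28653: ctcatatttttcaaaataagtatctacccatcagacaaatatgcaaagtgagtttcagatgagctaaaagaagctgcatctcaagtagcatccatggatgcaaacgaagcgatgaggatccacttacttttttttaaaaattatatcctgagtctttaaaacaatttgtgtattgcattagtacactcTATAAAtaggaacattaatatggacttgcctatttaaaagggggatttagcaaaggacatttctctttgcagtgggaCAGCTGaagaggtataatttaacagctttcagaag
The annotated start of Pik3r2 falls at base 102 of the window of 2010320M18Rik, and that of Ogfod2 at base 200 of the window of Gm16001. GC content was 74.7% for 2010320M18Rik, 67.7% for Gm16001 and 34.3% for Gm28653, and the ratio of observed to expected CpG was 1.03, 0.99 and 0.23. Both divergent windows hold GGGCGG and CCGGAAG, that of Gm16001 also holds CAGCTG, and the window of Gm28653 holds TATAAA and CAGCTG. Gm28653 does not stand for all windows that are not divergent. That of 1810058I24Rik, with no divergent coding gene, had 65.0% GC and a CpG ratio of 0.79, and it also holds GGGCGG and CCGGAAG.

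Over the 69 members with a RefSeq window within 500 bases of their annotated start, GGGCGG was in 53.6%, against 35.7% of all 32851 windows in the table and 46.2% of those of protein-coding genes. CCGGAAG was in 14 of the 69 (20.3%), against 8.86% of all windows and 11.6% of coding ones. CCAAT was in 44.9%, against 37.4% and 38.2%, and TATAAA in 8.70%, against 13.6% and 12.6%. TGACGTCA was in only 4 of the 69 (5.80%), against 1.79% and 2.23%. CACGTG was in 6 (8.70%), CAGCTG in 8 (11.6%) and the Nrf1 motif in 1 (1.45%), against 7.15%, 16.3% and 0.971% of all windows. The median ratio of observed to expected CpG was 0.713, against 0.384 for all windows and 0.567 for coding ones. The sets were not selected alike. The member windows are those of detected genes and lie near the annotated start, while the other windows had no minimum of level or distance. Differences from them therefore cannot be read as traits of lincRNA promoters. A match to these letters is a description and not a binding site.

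**Figure D4:**
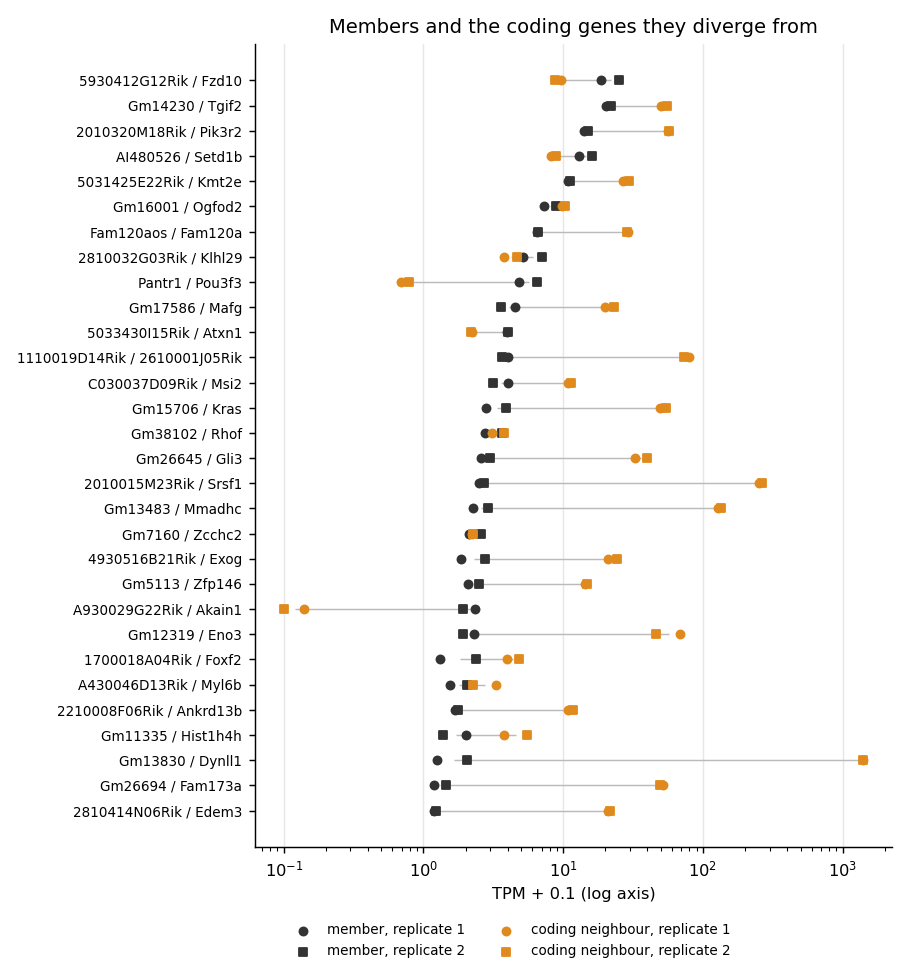
TPM plus 0.1 on a log axis of the 30 divergent members (black) and of their coding neighbours (orange), with a circle for replicate 1 and a square for replicate 2, ordered by the member's mean TPM. The neighbour is the higher in both libraries for 23 pairs, and Pantr1 with Pou3f3 and A930029G22Rik with Akain1 are among the 6 where it is the lower.

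For some members the nearest coding start is that of a gene on a list of limb patterning genes, at distances from 1605 to 1325315 bases. The list held Hox genes and 43 others, and whether each of them patterns the limb was not checked. These members were looked for after the values had been seen, as a description only. The nearest coding start belonged to a gene of that list for 8 members, of which 7 are described. The share among other lincRNA genes was not counted, so the 8 cannot be read as many or few. Gm26523, 10090 bases from Prrx1, a homeobox gene of limb mesenchyme, had 12.50 TPM in replicate 1 and 18.08 TPM in replicate 2, and Prrx1 had 86.98 and 101.57 TPM. Gm26645, divergent from the Hedgehog effector Gli3, had 2.50 and 2.91 TPM, with Gli3 at 32.33 and 39.43 TPM. Wnt7a of the ectoderm and Lmx1b of the mesenchyme are genes for dorsal fate. Wnt7a, at 3.31 and 3.99 TPM, is 29624 bases from 1810044D09Rik at 2.92 and 3.61 TPM. Lmx1b, at 4.84 and 6.42 TPM, is 78388 bases from 9430024E24Rik at 1.91 and 3.41 TPM. 2700033N17Rik, 1605 bases from the proximal limb gene Meis2 at 13.05 and 13.25 TPM, had 1.68 and 3.37 TPM. Gm53, 20352 bases from Hoxb9, had 1.25 and 2.30 TPM, with Hoxb9 below the minimum at 0.95 and 0.81 TPM. Gm13470 had 1.76 and 1.74 TPM at 1325315 bases from Zeb2, which had 31.48 and 30.25 TPM.

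The levels of members and of their nearest coding genes were then set side by side. Across 180 members whose nearest coding gene had a row, the Spearman correlation of mean TPM between member and neighbour was -0.10, as a description across genes, which are not independent and share both libraries. It was -0.14 over the 141 under 20% shared. The nearest coding gene was detected for 149 of the 180 (82.8%), against 72.2% for lincRNA genes below the minimum.

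The libraries differed in the level of tissue markers, whose part in the ratios was not tested. Limb identity genes (6 of 6 detected) summed to 274 TPM in replicate 2 and 217 TPM in replicate 1, and all 6 were higher in replicate 2. Muscle genes summed to 2688 TPM in replicate 2 and 3989 TPM in replicate 1, lower in replicate 2 for 14 of 14. Red blood cell genes summed to 17230 and 25930 TPM in the same order, lower for 7 of 7, and epidermal genes to 1256 and 1454 TPM, lower for 6 of 6. Cartilage genes summed to 786 and 780 TPM. No gene of neighbouring organs reached 1 TPM, the highest mean being 0.735 TPM. The limb identity genes each averaged 13.7 TPM or more. In whole tissue, fewer cells of a type and less RNA per cell cannot be told apart.

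Between libraries 27 of 184 members (14.7%) were past 1.5-fold in log2(TPM + 0.1), against 4.58% of all 14640 detected genes and 3.17% of detected coding genes. Of these members, 20 (10.9%) were higher in replicate 2, against 2.62% of all detected genes and 1.61% of coding genes. Another 7 (3.80%) were lower in replicate 2, against 1.95% and 1.56%. Under TMM scaling of counts the split was 10 higher and 11 lower, and with DESeq2's size factors 9 and 11, while spike-in scaling of counts gave 20 and 8. The direction of the majority thus rests on the scaling. With 1 library on each side there is no replicate check.

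At like TPM under 10, members passed this fold more often than coding genes. The shares were 21.4% of members and 10.9% of coding genes at 1 to 2 TPM, 17.4% and 10.7% at 2 to 5 TPM, and 10.7% and 4.12% at 5 to 10 TPM, with no test of the difference. At 10 to 100 TPM none of 28 members passed it, against 0.863% of coding genes. At 100 TPM or more none of 3 members passed it, against 0.597%. At like counts the shares lay closer. Of 56 members with fewer than 50 counts in their lower library, 25% were past 1.5-fold, against 22.9% of 319 coding genes of that depth. At 50 to 100 counts the shares were 14.6% of 48 members and 17.6% of coding genes, and at 100 to 500 counts 9.09% of 66 members and 6.06% of coding genes. None of the 14 members with 500 or more counts passed it, against 0.446% of coding genes. All but 3 of the 27 averaged under 5 TPM.

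The largest difference was that of Gm26735, which had 1.83 TPM in replicate 2 and 9.22 TPM in replicate 1, on 100 and 540 expected counts (log2 ratio -2.27). It lies at chr13:28943048-28951671 and its leading transcript matches Sox4, a transcription factor gene on the opposite strand, over 98.8% of its length. Sox4 itself had 78.76 TPM in replicate 2 and 62.52 TPM in replicate 1, a log2 ratio of 0.33. Gm26718, wholly covered by Pgam5, had 3.18 TPM in replicate 2 and 6.55 TPM in replicate 1 (log2 ratio -1.02), and Pgam5 had 55.35 and 51.02 TPM. Both members are 50% or more shared and neither had whole counts. The part of the split of reads between the genes in these ratios was not tested.

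Members with little or no shared sequence followed. Gm14005 (Morrbid) had 4.39 TPM in replicate 2 and 8.67 TPM in replicate 1, on 37 and 75 counts, with a log2 ratio of -0.97 and a counting interval of -1.57 to -0.38 for its counts. A930003A15Rik, at 1.80 and 3.56 TPM on 25 and 53 counts, had a log2 ratio of -0.95. BC043934 had a log2 ratio of -0.64, with 1.43 TPM in replicate 2 and 2.28 TPM in replicate 1. Next were Gm26906 (-0.54), which is wholly covered by Meg3, Pvt1 (-0.47) and Gm26880 (-0.43, 37.6% shared), none of them past 1.5-fold. The part of blood or muscle content in these ratios was not tested.

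In the other direction the log2 ratios were smaller than that of Gm26735. Gm26669, opposite Zfp36l1 and 92.8% shared, had 2.74 TPM in replicate 2 and 1.48 TPM in replicate 1 (0.85). D130017N08Rik had 2.07 and 1.11 TPM (0.84), on 137 and 77 counts, with a counting interval of 0.47 to 1.31. Gm53 had 2.30 and 1.25 TPM (0.83), but its counts of 51 and 40 gave a log2 ratio of 0.40 with an interval of -0.22 to 1.04. The authors' posterior mean puts Gm53 at 4.04 TPM over both libraries, 2.28 times its mean of 1.77 TPM. After these came Gm20939 (0.70), A430106G13Rik (0.69), Gm12766 (0.67), Gm16907 (0.64) and Gm17484 (0.62). Below 50 counts in both libraries the ratio reached 0.96 in 2700033N17Rik, on 45 and 24 counts, and 0.93 in 4930403P22Rik.

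**Figure D5:**
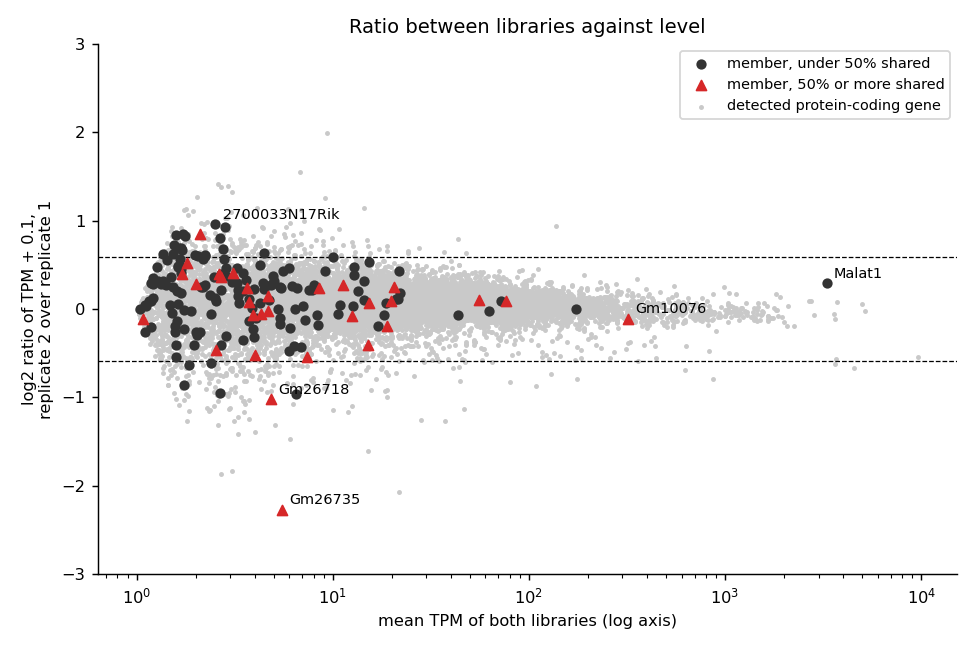
Log2 ratio of TPM + 0.1, replicate 2 over replicate 1 (y), against mean TPM on a log axis (x) for the 184 members, with triangles for those 50% or more shared, over all detected protein-coding genes in grey; dashed lines mark 1.5-fold. Gm26735 is the lowest member at -2.27, and the spread of members narrows as level rises.

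Among the 20 highest members none passed 1.5-fold. The largest ratios there were those of Gm26523 (0.53, at 18.08 TPM in replicate 2 and 12.50 in replicate 1), 5930412G12Rik (0.43) and Malat1 (0.29). The median log2 ratio over all members was 0.20, against 0.07 over all detected genes, and 126 of 184 (68.5%) were above 0, against 66.4% of detected coding genes. With TMM scaling the medians were 0.11 and 0.00. The rest of the 20 were 2900076A07Rik, Gm28875 at 18.18 and 19.05 TPM in replicates 1 and 2, Gm26532 at 18.62 and 17.74 TPM, 1300002E11Rik at 18.24 and 15.94 TPM, and members given above.

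Muscle markers were lower in replicate 2 for 14 of 14, and 2 members tied to muscle were looked at for that reason. Gm28653 (Lincmd1) had a log2 ratio of -0.41, with a counting interval of -0.74 to -0.19. Such intervals cover counting error only and excluded 0 for 49 members, 13 of them lower in replicate 2. Gm12319, divergent from the muscle enolase gene Eno3, had 1.81 TPM in replicate 2 and 2.19 TPM in replicate 1, and Eno3 had 45.98 and 68.85 TPM. Neither member passed 1.5-fold, and both were picked after their values were seen. Carmn and Bvht, named above for the cardiovascular lineage, went the other way. They had 4.01 and 5.59 TPM in replicate 2 against 3.0 and 4.48 TPM in replicate 1. The part of muscle content in these values was not tested.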

How the data were processed

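Total RNA-seq of 2 limb libraries was analysed from a gene and a transcript table each. Per the notes deposited with each sample, mm10 and GENCODE M4 were used. Aligner, quantification program and strand were not given in the sources used here. Expected counts, as deposited by the authors, are estimated reads that need not be whole. TPM values deposited by the authors are abundances scaled to the same total per library. Leading transcripts came from the authors' percent of gene TPM per transcript, and posterior mean TPM gave an alternative. The authors also deposited FPKM, which stayed out of the analysis.

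Types, symbols and positions came from GENCODE M21 (GRCm38) by Ensembl identifier, and other names from RefSeq (GRCm38.p6) by symbol, by synonym on the same strand with 30% reciprocal overlap, or by position with 80% overlap. Of the members, 69 had a promoter window that was used. Ratios are log2(TPM + 0.1) of replicate 2 minus replicate 1, so folds of low genes are understated. Counts were called whole within 0.005. Counting intervals are exact (Clopper-Pearson, 95%) on counts over library totals. Shared sequence was found with BLAST 2.17.0. Counts were rounded for TMM (edgeR 4.0.16) and DESeq2 1.42.0 scaling, and no differential test was made. Only TMM was tested on simulated data, for genes with a mean of 50 or more counts. Python 3.11.15 and R 4.3.3 were used.

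Members and lists were chosen with earlier results of these data known. Genes were named by rule: the 20 highest, the 8 largest ratios each way with 50 or more counts in a library, small RNA hosts, the known-RNA list, those nearest the minimum, the 10 highest divergent members, and those at 5 TPM or more whose leading transcript differed. Alternatives were other TPM minima, pseudocounts, count scalings, count minima and start distances, leaving out a library, and, chosen after seeing the data, leaving out members 50% or more shared. Genes outside the rule are described as picked afterwards or stand in a list. The neighbour of 1 member is not reported here.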

Additional observations from a re-analysis of the deposited data

How the results depend on the processing

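A minimum of 2 TPM in both libraries left 111 members and one of 5 TPM left 54, against 184 at 1 TPM; 0.5 TPM gave 273, posterior mean TPM 192, 10 counts in both libraries 180, and leaving out 1 library 206 to 216. The median level of 3.17 TPM became 3.30 TPM with posterior mean TPM, within the spread of the libraries. With 1 library left out it was 3.02 to 3.40 TPM, which lies within that spread nearly by construction. Without the 30 members that are 50% or more shared it was 2.78 TPM, outside that spread. That alternative was chosen after seeing the data. The 27 members past 1.5-fold became 8 with a pseudocount of 1 TPM and 13 among members with 50 or more counts in both libraries, and 20 to 31 under the other settings. The pseudocount of 1 TPM shrinks ratios at these levels by construction. Among the 59 members with a mean over both libraries of 5 TPM or more, 31 of 34 members with several transcripts kept the same leading transcript and 9 were divergent; both sets hold fewer genes by construction. Of 64 named members, posterior mean TPM moved 9 by more than the spread of the libraries, most in Gm53, at 2.28 times its TPM; the cause was not tested. Leaving out 1 library moved 3 members by over 1.5 times: Gm26735, Gm26718 and 2700033N17Rik. No paired analysis was possible because the labels give 1 group. Depth limits the ratios of the 56 members with under 50 counts in a library.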
